A study of Sus scrofa with 23 samples.

Results

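The genes described are 7 of the 25322 gene rows in the count tables, and each codes for a respiratory chain subunit that is encoded in the nuclear genome: NDUFS5, NDUFA10 and NDUFB8 of complex I, UQCRFS1 and UQCRQ of complex III, and COX7A2 and COX8A of complex IV. They were followed in the backfat of 23 crossbred fatteners (Polish Landrace × White Large Polish sows, Duroc × Pietrain boar) fed 1 of 4 diets. The diets were group I (-cDDGS+rapeseed oil, n = 7), group II (+cDDGS+rapeseed oil, n = 6), group III (+cDDGS+beef tallow, n = 5) and group IV (+cDDGS+coconut oil, n = 5), where cDDGS is corn distillers dried grains with solubles, a by-product of ethanol production used as feed. The cDDGS diets also held more fat and fibre and less starch than the diet of group I, so cDDGS and these differences in the feed cannot be told apart. Each library came from 1 pig, and gilts (12) and barrows (11) were present in every group. The members were chosen by the study's own DESeq2 calls on these libraries: each had passed as lower than in group I, either in group II (NDUFS5, NDUFA10, NDUFB8, COX7A2 and UQCRFS1), in group IV (COX8A) or with the cDDGS groups pooled (NDUFS5, NDUFB8 and UQCRQ). These lists follow the gene tables of the study, whose text names NDUFA10 and not NDUFS5 for the pooled groups. Their differences from group I, and those between group II and the other cDDGS groups, are therefore given as a description with no test. Differences between groups IV and III (for the 6 members other than COX8A), between the sexes and between pigs of the same group were not contrasts of that choice and were tested. Pigs of groups III and IV did enter the pooled call of NDUFS5, NDUFB8 and UQCRQ. A gap between these groups counts as spread in that call, so for these members the test is not fully independent of the choice.

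The respiratory chain passes electrons from NADH and succinate to oxygen across the inner mitochondrial membrane, and the proton gradient it builds drives ATP synthase. Complex I takes electrons from NADH, complex II takes them from succinate, complex III hands them from ubiquinol to cytochrome c, and complex IV reduces oxygen. Complexes I, III and IV are assembled from subunits of both the nuclear and the mitochondrial genome. In white adipose tissue mitochondria also supply the citrate and ATP used for fatty acid synthesis.

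Reads counted on genes numbered from 2437172 to 7979426 per pig, and the share of uniquely mapped reads that fell outside annotated genes ranged from 51.1% to 71.3%. The mean share was 56.8% both without cDDGS (group I, SD 2.53, n = 7) and with cDDGS and tallow (group III, SD 4.0, n = 5). It was 62.5% with cDDGS and rapeseed oil (group II, SD 5.81, n = 6) and 63.0% with coconut oil (group IV, SD 5.05, n = 5). The labelled tissue was checked against adipocyte markers: PLIN1, the perilipin that coats lipid droplets, had a mean of 1181 CPM (reads of a gene per 1e6 reads counted on genes, after TMM scaling), and all 6 adipocyte markers with an identifier were detected. The summed level of these 6 markers ranged from 2928 to 4290 CPM in group I and from 2412 to 3910 CPM across groups II, III and IV. Its mean was 3658 ± 527 CPM in group I and 3058 ± 592 CPM in group II (SD, n = 7 and 6). It was 3118 ± 219 CPM in group III and 2957 ± 206 CPM in group IV (SD, n = 5 each). Macrophage markers (8 of 8 detected) summed to 41.9 to 184.9 CPM in the pigs of group I and to 198.0 to 403.6 CPM in those of group II, without overlap. The sums with tallow and with coconut oil, 85.3 to 246.7 CPM and 94.1 to 242.9 CPM, overlapped both. The study had already named VSIG4 and MRC1 of this list as raised by cDDGS in these libraries. It also named C1Q, without the chain, among the complement genes that differed. What share of all genes was higher in group II without overlap was not computed. In a bulk sample such as this, fewer cells of a type and less RNA per cell cannot be told apart.

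Among the complex I members, NDUFS5, an accessory subunit, had the widest range. Its level was 35.2 to 134.2 CPM in group I (median 105.7) and 41.1 to 58.5 CPM in group II (median 47.6). In group III the 5 pigs measured 52.8, 82.4, 93.0, 68.6 and 45.7 CPM, and in group IV they measured 51.6, 44.2, 61.2, 46.6 and 50.2 CPM. The levels of 5 of the 7 pigs of group I lay above every cDDGS pig, while pig 1 of group I (35.2 CPM) was the lowest of all 23 pigs and pig 3 (47.5 CPM) lay below the median of group II, so that every cDDGS group overlapped with group I. The log2 fold change against group I was -0.93 ± 0.26 (SE) for cDDGS with rapeseed oil (group II), -0.44 ± 0.29 with tallow (group III) and -0.87 ± 0.27 with coconut oil (group IV).

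NDUFA10, another accessory subunit of complex I, ranged from 45.4 to 97.8 CPM in group I (median 70.5) and from 26.0 to 61.5 CPM in group II (median 40.8). The pigs of group III measured 41.4, 51.8, 64.1, 53.0 and 73.1 CPM, and those of group IV 56.3, 42.9, 67.7, 44.5 and 46.9 CPM. All 6 pigs of group II lay below the median of group I, but the ranges overlapped in each comparison with group I. The log2 fold change was -0.73 ± 0.20 for cDDGS with rapeseed oil (group II), -0.33 ± 0.19 with tallow (group III) and -0.46 ± 0.18 with coconut oil (group IV).

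NDUFB8, an accessory subunit of the membrane arm, was one of the members at the low end of the scale, with 12 to 87 reads per pig. It stood at 9.47 to 16.4 CPM in group I (median 14.1) and at 5.03 to 9.45 CPM in group II (median 7.94), so that the pigs of these groups did not overlap. The pigs of group III measured 3.50, 7.56, 12.3, 9.37 and 13.1 CPM, and those of group IV 7.41, 12.0, 8.98, 7.57 and 11.4 CPM. Every cDDGS pig lay below the median of group I. The log2 fold change was -0.79 ± 0.18 for cDDGS with rapeseed oil (group II), -0.56 ± 0.25 with tallow (group III) and -0.52 ± 0.18 with coconut oil (group IV).

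In complex III, UQCRFS1 codes for the Rieske iron-sulfur protein, which takes the electron from ubiquinol. It ranged from 63.4 to 122.1 CPM in group I (median 91.9) and from 40.8 to 65.9 CPM in group II (median 58.9). The pigs of group III measured 56.0, 60.2, 81.1, 71.5 and 109.9 CPM, and those of group IV 58.8, 71.4, 90.7, 58.7 and 76.1 CPM. In group II 5 of the 6 pigs lay below all 7 pigs of group I, and pig 48 of group III, at 109.9 CPM, lay above the median of group I. The log2 fold change was -0.72 ± 0.16 for cDDGS with rapeseed oil (group II), -0.31 ± 0.19 with tallow (group III) and -0.39 ± 0.17 with coconut oil (group IV). That of group III was -0.48 without pig 48 and -0.22 without pig 41.

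UQCRQ, a small subunit of complex III, was also low, with 15 to 93 reads per pig. Its range was 9.29 to 17.5 CPM in group I (median 12.1) and 4.33 to 9.95 CPM in group II (median 9.18). Group III held 7.88, 8.64, 9.36, 5.48 and 12.7 CPM, and group IV held 6.17, 8.83, 8.98, 7.57 and 9.42 CPM. The 3 cDDGS groups sat close together, with medians between 8.64 and 9.18 CPM, and 11 of 16 cDDGS pigs lay below all pigs of group I. The log2 fold change was -0.68 ± 0.21 for cDDGS with rapeseed oil (group II), -0.56 ± 0.21 with tallow (group III) and -0.64 ± 0.18 with coconut oil (group IV).

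In complex IV, COX7A2 codes for the form of subunit 7A that is present in most tissues. It ranged from 18.3 to 35 CPM in group I (median 27.8) and from 11.7 to 18.2 CPM in group II (median 16.4), again without overlap. The pigs of group III measured 17.5, 19.1, 26.6, 17.7 and 22.3 CPM, and those of group IV 12.8, 17.1, 28.9, 14.2 and 28.0 CPM. Group IV was split, with pigs 53 and 55 above the median of group I and the other 3 below all pigs of group I. The log2 fold change was -0.78 ± 0.17 for cDDGS with rapeseed oil (group II), -0.40 ± 0.18 with tallow (group III) and -0.41 ± 0.23 with coconut oil (group IV).

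COX8A, the widely expressed form of the smallest complex IV subunit, ranged from 15.3 to 24.3 CPM in group I (median 17.7) and from 7.80 to 18.6 CPM in group II (median 11.04). The pigs of group III measured 14.6, 13.6, 15.5, 12.1 and 22.0 CPM, and those of group IV 12.3, 12.0, 11.2, 14.5 and 10.9 CPM. For COX8A group IV, and not group II, stood clear of group I, with all 5 pigs below the 7 pigs of group I. The log2 fold change was -0.59 ± 0.18 for cDDGS with rapeseed oil (group II), -0.24 ± 0.17 with tallow (group III) and -0.59 ± 0.14 with coconut oil (group IV). That of group III was -0.40 without pig 48 or by limma-voom, and -0.15 without pig 2 of group I.

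**Figure D1:**
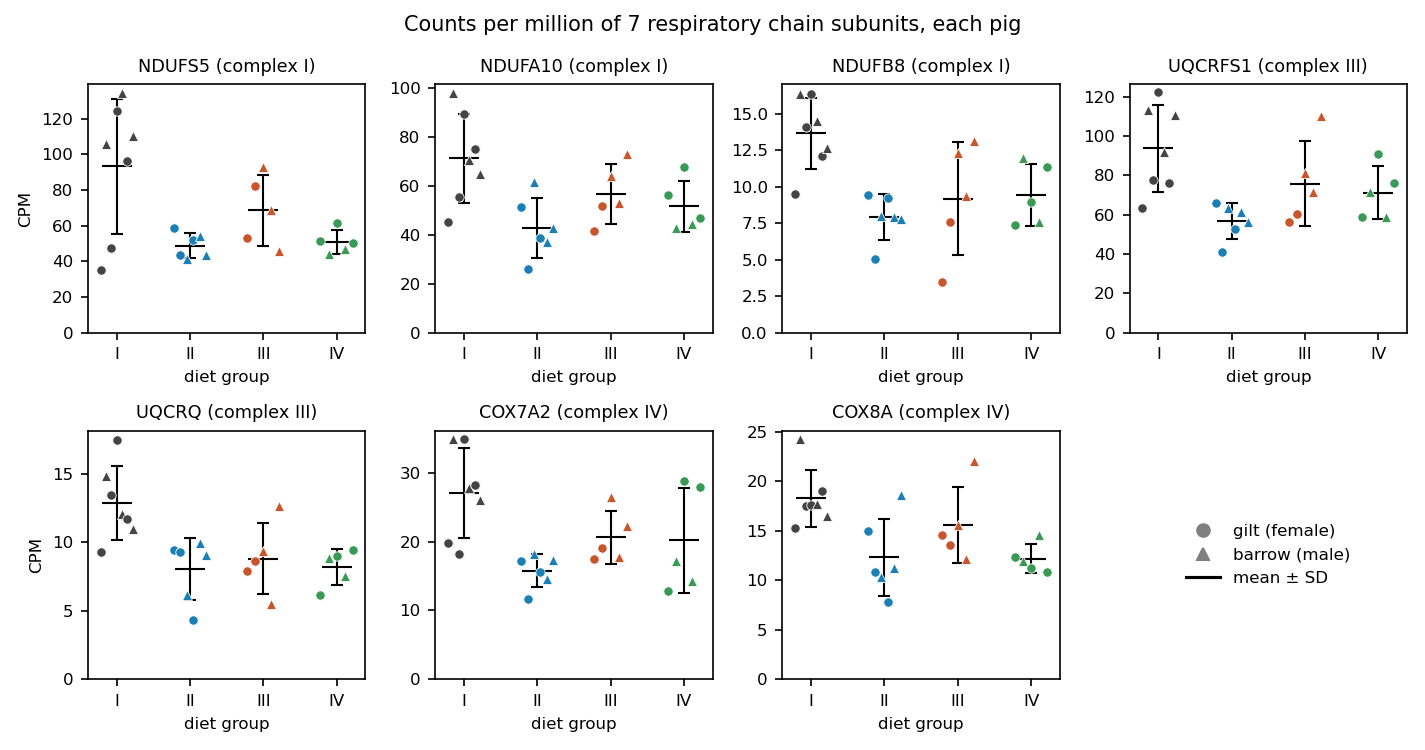
CPM of the 7 subunits in each pig by diet group, with circles for gilts, triangles for barrows and bars for the group mean ± SD. Group I has the highest mean in every panel, and pigs 1 and 3 of group I account for its 2 low points for NDUFS5 (35.2 and 47.5 CPM).

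The 3 pigs in which all 7 members lay below their median over the 23 pigs were pigs 19 and 21 of group II and pig 54 of group IV, which also had the 3 largest shares of reads outside genes (68.5%, 69.2% and 71.3%). In 5 of the 7 pigs of group I and in pig 45 of group III no member lay below that median. The summed level of the 7 members ran from 197.9 to 422.1 CPM in group I and from 147.0 to 226.8 CPM in group II, and from 193.8 to 302.0 and 193.7 to 277.7 CPM with tallow and coconut oil.

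Group I had the highest mean of all 4 groups for each member. The order was group I, III, IV and II for 5 members (NDUFS5, NDUFA10, UQCRFS1, UQCRQ and COX7A2), while NDUFB8 had group IV ahead of group III and COX8A had group II ahead of group IV. The step from group I to the next group exceeded the larger of both SDs for NDUFB8 and UQCRQ and not for the other 5 members. The step from the middle groups to each other was below the larger SD for all 7, and the lowest step exceeded it for UQCRFS1 (71.2 ± 13.4 CPM in group IV, n = 5, against 56.7 ± 9.19 CPM in group II, n = 6).

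All 21 log2 fold changes of the 7 members in groups II, III and IV against group I were below 0, where 29.8% of the 10178 genes tested in the 3 comparisons were below 0 in each of them. The members' median log2 fold change was -0.73, -0.40 and -0.52 for groups II, III and IV and -0.53 for the 3 groups pooled. NDUFS5, NDUFB8 and UQCRQ were lowest in the pooled comparison (-0.74 ± 0.19, -0.63 ± 0.17 and -0.63 ± 0.15), and COX8A was nearest to 0 (-0.47 ± 0.14). No member was past the call (adjusted p under 0.05 and fold change above 1.3) in edgeR's quasi-likelihood test, where 0.0291% of all genes tested were called in group II and 0% in group III, group IV and the pooled comparison. At an unadjusted p under 0.05 the test named 7 of the 7 members lower in group II (6.41% of all genes), 3 in group III (3.9%), 6 in group IV (5.99%) and 7 with the groups pooled (7.07%). DESeq2, the tool that the study used, called 5 members in group II (1.15% of genes called), 0 in group III (0.102%), 1 in group IV (1.57%) and 3 in the pooled comparison (1.62%), and limma-voom called 0, 0, 0 and 2 (0.0387%, 0%, 0% and 0.474%). These counts are read as no result, since the same contrasts chose the members. In DESeq2 the members nearest the threshold in group II were NDUFA10 inside it (adjusted p = 0.0481) and COX8A outside it (adjusted p = 0.0939), with NDUFS1, which is no member, between them (adjusted p = 0.0606). Complete separation from group I held for NDUFB8 and COX7A2 in group II (0.242% of all genes tested were lower without overlap), for COX8A in group IV (0.414%), and for no member in group III (0.115%) or in the pooled comparison (0%).

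**Figure D2:**
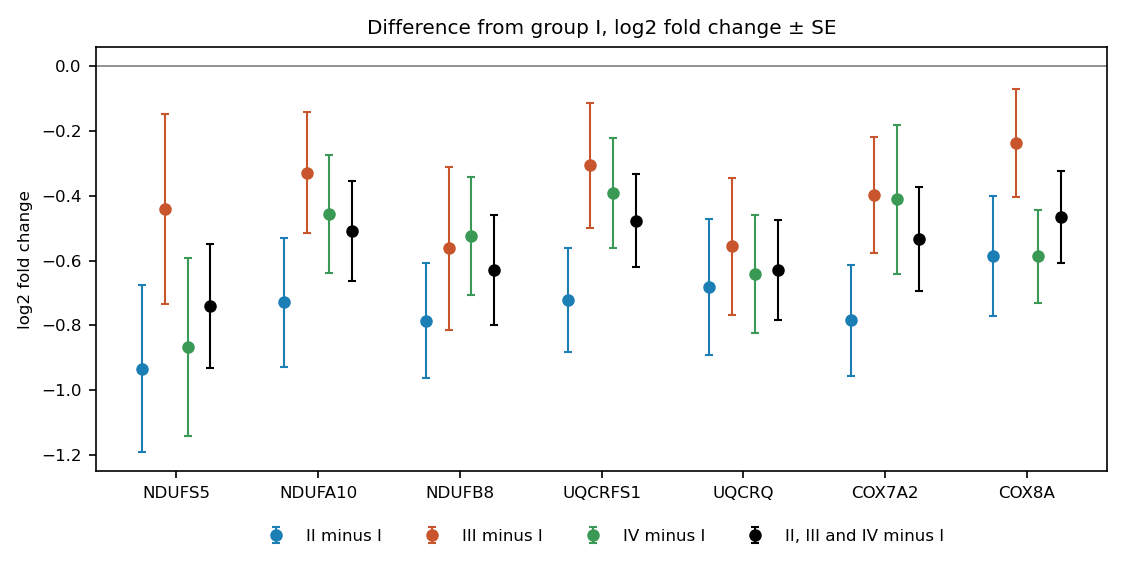
Log2 fold change ± SE of each subunit against group I for groups II, III and IV and for the 3 pooled, from edgeR. All 28 points lie below 0, and group II is lowest for 6 of the 7 subunits, with COX8A at -0.59 in both group II and group IV.

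The share of reads outside genes moved with the groups in which the members were lowest, and it moved with the members from pig to pig. Within diet groups, with group means removed, it fell as UQCRFS1 (r = -0.75, rho = -0.83, adjusted permutation p = 0.0007 for r and for rho), NDUFA10 (r = -0.70, rho = -0.72, adjusted p = 0.005 for both), COX7A2 (r = -0.57, rho = -0.68, adjusted permutation p = 0.0142 and 0.0049) and NDUFB8 (r = -0.55, rho = -0.57, adjusted permutation p = 0.0219 and 0.0231) rose. For UQCRQ, COX8A and NDUFS5 the values of r were -0.43, -0.43 and -0.13, and none of the 3 passed (adjusted permutation p = 0.161, 0.183 and 0.565). These are 7 of 35 relations that were adjusted together, over 23 pigs. How many other genes would pass in such relations was not computed. Without the 2 pigs farthest from the median share, r became -0.80 for UQCRFS1, -0.77 for NDUFA10, -0.57 for COX7A2 and -0.67 for NDUFB8. With the share as a covariate, the members' median log2 fold change against group I was -0.49, -0.39 and -0.25 for groups II, III and IV and -0.36 for the groups pooled. Under the same covariate NDUFA10, UQCRFS1 and COX8A had -0.38, -0.45 and -0.32 in group II. NDUFS5 had -0.82 in group II and -0.64 in group IV, whereas UQCRFS1 and COX7A2 had -0.02 and 0.01 in group IV. The part of this share in the differences was not tested.

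**Figure D3:**
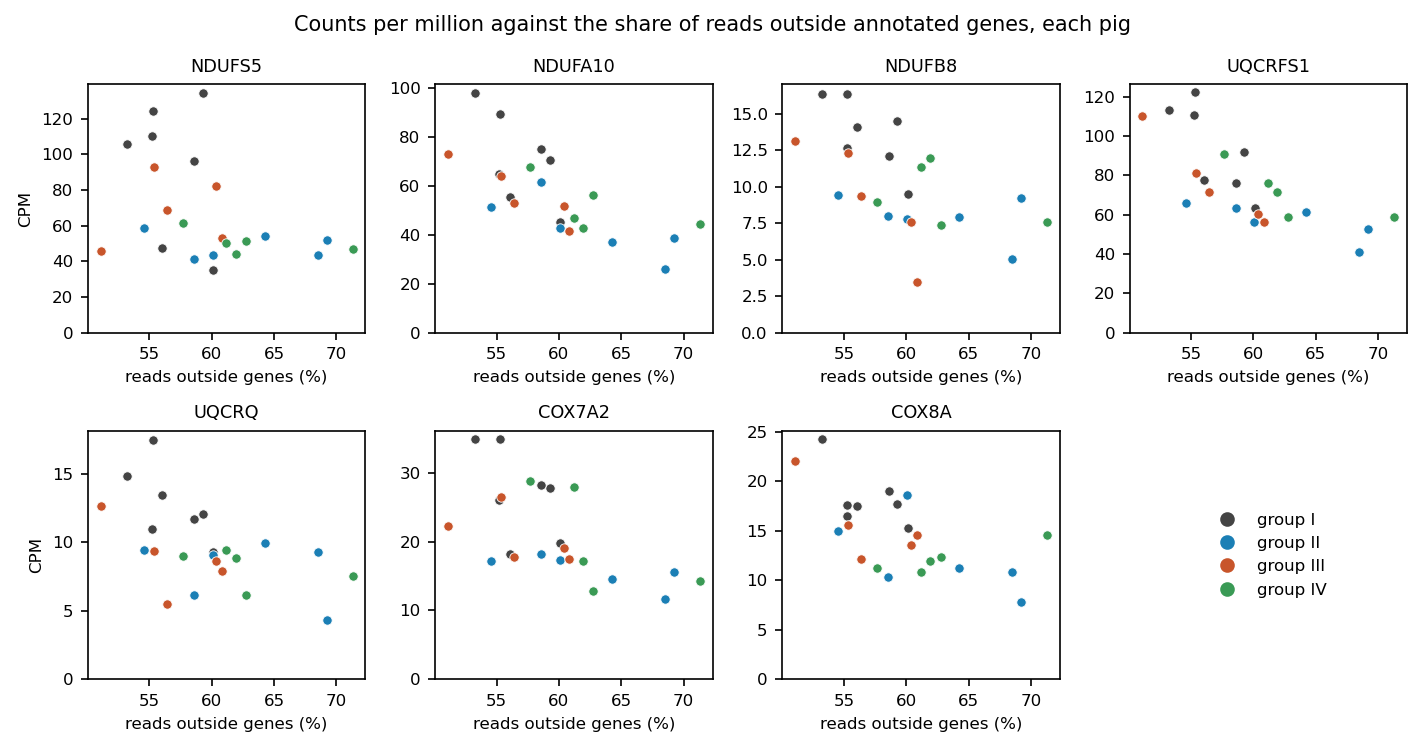
CPM of each subunit against the share of reads outside annotated genes, 1 point per pig, coloured by diet group. Pigs with a larger share tended to have less NDUFA10 and UQCRFS1 in each group (r = -0.70 and -0.75 with group means removed), and NDUFS5 showed little of this (r = -0.13).

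The fat source could be tested between groups IV and III, which both received cDDGS. For NDUFS5, NDUFB8 and UQCRQ this test is not fully independent of the choice of members. None of the 6 members passed (edgeR adjusted p between 0.997 and 0.998, 0% of 10230 genes called, and 0% by DESeq2 and by limma-voom). The lowest unadjusted p was that of NDUFS5, at 0.0379, with a log2 fold change of -0.43 ± 0.19 and an exact permutation p of 0.0952 over 252 regroupings. It was the only one of the 6 below 0.05, where 1.82% of all genes were on the lower side and 2.29% on the higher side. The exact permutation p of the other 5 members lay between 0.492 and 0.794, and the smallest that this design allows is 0.00794. For the other 5 members the log2 fold change was -0.13 for NDUFA10 (95% interval -0.47 to 0.21), 0.04 for NDUFB8 (-0.53 to 0.61), -0.08 for UQCRFS1 (-0.46 to 0.29), -0.09 for UQCRQ (-0.53 to 0.36) and -0.02 for COX7A2 (-0.48 to 0.45). These intervals leave room for differences of the size seen between groups III and II. COX8A, for which group IV had been used in the choice, was at 15.6 ± 3.83 CPM in group III and 12.2 ± 1.43 CPM in group IV (SD, n = 5 each). Against group II the members' median log2 fold change was 0.39 for group III and 0.25 for group IV, with the highest of group III being NDUFS5 (0.50 ± 0.18) and the highest of group IV being COX7A2 (0.36 ± 0.22). With the share of reads outside genes as covariate, group III against group II had 0.52 for NDUFS5, 0.22 for COX7A2 and 0.11 for UQCRFS1. It had 0.07 for NDUFA10 and COX8A, -0.05 for UQCRQ and -0.11 for NDUFB8. Group IV against group II then ran from 0.01 (COX8A) to 0.35 (COX7A2). The values without this covariate rested in part on single pigs. The median was 0.24 for group III without pig 48 and 0.14 for group IV without pig 53, and COX7A2 in group IV was 0.20 without pig 53. UQCRQ turned from 0.13 to -0.04 in group III without pig 48 and from 0.03 to -0.10 in group IV without pig 21, and NDUFS5 in group IV turned from 0.05 to -0.02 without pig 53. COX8A in group IV, at -0.01, ran from -0.11 without pig 21 to 0.12 without pig 24.

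Barrows and gilts were compared with diet group in the model. All 7 members had a higher level in barrows, with log2 fold changes from 0.04 (UQCRQ) to 0.27 (NDUFB8), and none passed the test (edgeR adjusted p between 0.337 and 0.919, whereas 0.954% of all genes did, and the unadjusted p were 0.0771 or higher). The largest were NDUFB8 at 0.27 ± 0.16 (0.16 without pig 41) and UQCRFS1 at 0.23 ± 0.12. UQCRQ was at -0.026 without pig 21, and NDUFS5 was at 0.017 without pig 1. For UQCRQ, COX7A2 and NDUFS5 the 95% intervals ran from -0.27 to 0.35, from -0.24 to 0.35 and from -0.24 to 0.46. The 33 other nuclear subunits tested had a median of 0.28, with 32 of them above 0 and 11 higher and 0 lower at an unadjusted p under 0.05 (8.57% and 9.14% of all genes), and edgeR called none of them. COL1A2, a collagen chain from the fibroblast list, was the 1 listed gene past the call, lower in barrows by a log2 fold change of -0.82 ± 0.18 (edgeR adjusted p = 0.0283).

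Whether the members moved together from pig to pig was tested within diet groups. Over the 23 pigs all 21 pairs had a positive Pearson r, from 0.01 to 0.78 with a median of 0.43, and 8 of the 21 passed at an adjusted permutation p under 0.05 (4 by Spearman's rho). How many pairs of other genes would pass was not computed. Within single groups of 6 or more pigs the values differed: the median r was 0.78 in group I (0.43 to 0.94, n = 7) and 0.27 in group II (-0.37 to 0.95, n = 6), and the difference between these groups was not tested. NDUFB8 with UQCRQ had r = 0.92 in group I and -0.37 in group II, whereas NDUFA10 with COX7A2 had 0.94 and 0.95. The strongest pairs joined different complexes: NDUFA10 with UQCRFS1 (r = 0.78, rho = 0.74, adjusted permutation p = 0.00126 and 0.00283), UQCRFS1 with COX7A2 (r = 0.74, rho = 0.73, adjusted permutation p = 0.00126 and 0.00283) and NDUFB8 with UQCRFS1 (r = 0.73, rho = 0.71, adjusted permutation p = 0.00126 and 0.00409). NDUFA10 also went with COX7A2 (r = 0.69, rho = 0.71, adjusted permutation p = 0.00178 and 0.00329). UQCRQ and COX8A had r = 0.64 (rho = 0.54, adjusted permutation p = 0.0213 and 0.0504), which fell to 0.46 without the 2 farthest pigs. Leaving out the 2 farthest pigs of the first gene gave 0.76, 0.76, 0.71 and 0.67 for the 4 strongest pairs in the order given. The weakest pair was NDUFS5 with COX8A (r = 0.01, adjusted permutation p = 0.976), which was the 1 pair below 0 without its 2 farthest pigs (r = -0.20). Removing the share of reads outside genes as well lowered the median r of the 21 pairs to 0.30, with 17 of 21 above 0.

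**Figure D4:**
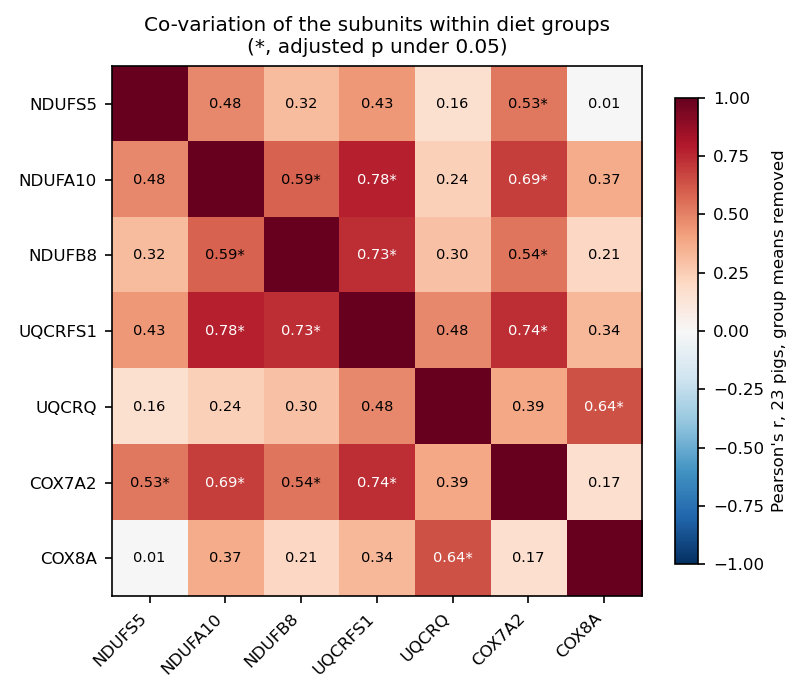
Pearson's r between each pair of subunits over 23 pigs after removal of the diet group means, with an asterisk where the adjusted permutation p was under 0.05. UQCRFS1, NDUFA10, NDUFB8 and COX7A2 form the block of high values (r from 0.54 to 0.78), and COX8A is joined mainly to UQCRQ (r = 0.64).

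The members were next set beside the other nuclear subunits of the chain. Of 44 nuclear subunits with an identifier, 37 are not members, and 2 of these, NDUFB10 and SDHA, are listed at 0 in every pig. Their lower call rate is partly built in, since a subunit that the study had called would be a member. None of the 34 tested was called in group II, group III, group IV or the pooled comparison, whereas at an unadjusted p under 0.05 the counts on the lower side were 9, 1, 3 and 7 (beside 6.41%, 3.9%, 5.99% and 7.07% of all genes), and 0, 1, 0 and 0 on the higher side (beside 6.54%, 4.06%, 8.22% and 8.69%). Their median log2 fold change was -0.30, -0.07 and -0.10 for groups II, III and IV and -0.14 pooled, beside 0.00, 0.00, -0.01 and 0.01 over all genes tested. Leaving out 1 pig moved the median of group III from -0.27 (without pig 48) to 0.03 (without pig 41), that of group IV from -0.16 (pig 1) to -0.07 (pig 2) and that of the pooled groups from -0.22 (pig 1) to -0.07 (pig 5). With the share of reads outside genes as covariate the medians were -0.04 in group II, 0.02 in group IV and -0.03 pooled, and with the RNA integrity number they were -0.20 in group III and -0.23 pooled. In group II, 30 of the 34 were below 0 (49.6% of all genes were). By complex the median in group II was -0.23 for the 15 other subunits of complex I, -0.34 for the 3 of complex II, -0.37 for the 5 of complex III with cytochrome c, -0.24 for the 5 of complex IV and -0.25 for the 6 of ATP synthase. The 9 on the lower side in group II were NDUFS1 (-0.57 ± 0.16), which holds iron-sulfur clusters of complex I, NDUFV1, which binds NADH, SDHB of complex II, the electron carrier CYCS, UQCR10, NDUFA4, and ATP5F1A, ATP5MC3 and ATP5MC1 of ATP synthase.

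The other subunits with the highest CPM did not pass the test. In complex I, NDUFB9 had a log2 fold change of -0.23 ± 0.14 in group II and of -0.05 pooled. In complex II, SDHC and SDHD had -0.17 ± 0.19 and -0.34 ± 0.19 in group II, and -0.09 and -0.21 pooled. The core subunits UQCRC1 and UQCRC2 of complex III had -0.33 ± 0.17 and -0.29 ± 0.16 in group II, and -0.17 and -0.26 pooled. In complex IV, COX4I1 had -0.24 ± 0.19 in group II and -0.22 pooled, and COX7A2L, which helps complexes to join into supercomplexes, had -0.15 ± 0.14 and -0.05. ATP5F1A, the alpha subunit of ATP synthase, had -0.48 ± 0.18 and -0.37, and ATP5PO had -0.05 ± 0.13 and -0.06.

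**Figure D5:**
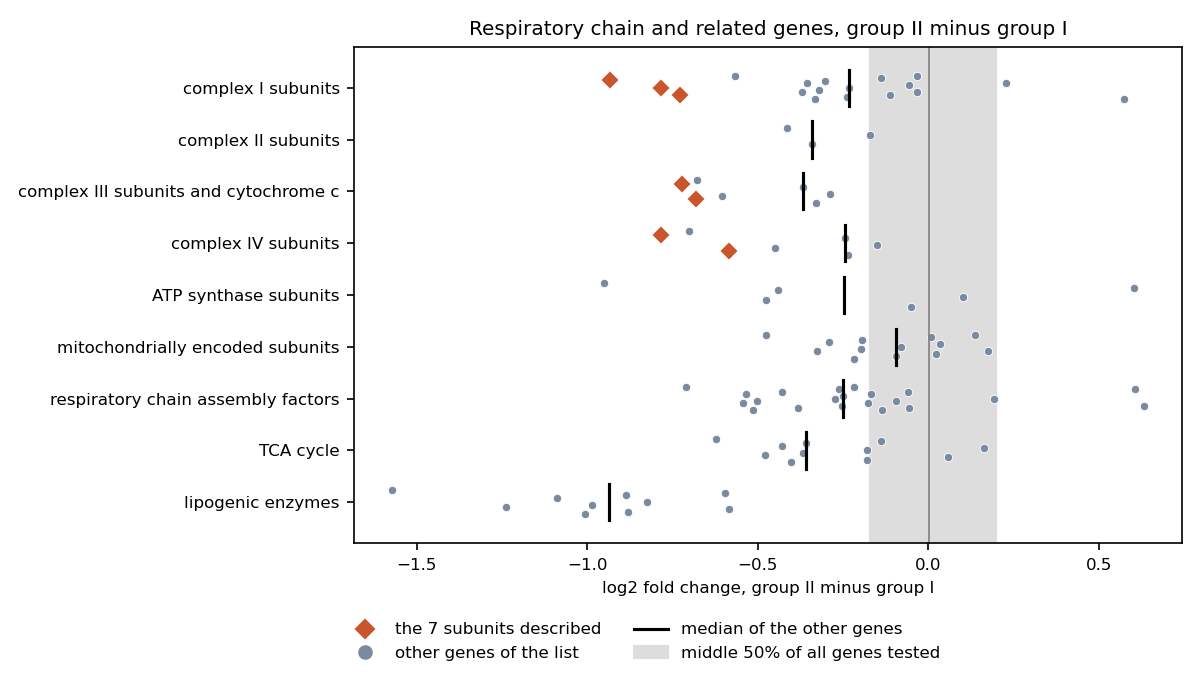
Log2 fold change in group II against group I for the 7 subunits (diamonds), the other genes of each list (circles, with the median as a bar) and the middle 50% of all genes tested (grey). The 7 subunits lie from -0.93 to -0.59, toward the lower end of their lists, and calls in this contrast chose 5 of them.

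The 13 mitochondrially encoded subunits had medians nearer to 0 or above it. Their median log2 fold change was -0.09 for cDDGS with rapeseed oil (group II), 0.40 with tallow (group III) and 0.07 with coconut oil (group IV), and none was called in any of the 3. At an unadjusted p under 0.05, 0, 4 and 1 were above 0 (beside 6.54%, 4.06% and 8.22% of all genes). At that threshold 0 were below 0 in each (beside 6.41%, 3.9% and 5.99%). Their most abundant members, COX1 of complex IV and ND5 of complex I, had -0.29 ± 0.21 and -0.33 ± 0.20 in group II and -0.10 ± 0.16 and -0.06 ± 0.17 pooled. Within groups, the summed level of the 13 rose with COX8A (r = 0.57, rho = 0.49, adjusted permutation p = 0.0363 and 0.0818, r = 0.45 without the 2 farthest pigs), and for the other 6 members r lay between -0.13 and 0.36 with no test passed. By contrast, the summed level of the other nuclear subunits rose with 6 of the 7 members (5 by Spearman's rho), most with UQCRFS1 (r = 0.83, rho = 0.82, adjusted permutation p = 0.0007 and 0.0012), and for NDUFS5 r was 0.32 (adjusted permutation p = 0.338). Without the 2 farthest pigs the r of the 6 lay between 0.44 (COX7A2) and 0.75 (UQCRFS1). How many genes outside the lists would rise with either sum was not computed.

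Of the 21 assembly factors tested in group II, 5 were lower and 0 higher at an unadjusted p under 0.05 (beside 6.41% and 6.54% of all genes). The 21 had a median of -0.25, and none was called. LRPPRC, which stabilises mitochondrial mRNAs, had -0.25 ± 0.11 in group II and -0.24 ± 0.10 pooled, and the copper chaperone SCO1 had -0.17 ± 0.11 and -0.03. COX15, which makes the heme A that complex IV carries, was at 9.44 ± 2.44 CPM in group I (SD, n = 7) and at 5.78 ± 1.33 CPM in group II (SD, n = 6), with a log2 fold change of -0.71 ± 0.21. It is an assembly factor that the study had also listed, so this is a description. Of the 11 regulators of mitochondrial biogenesis tested, 1 was lower and 1 higher at that threshold in group II (median -0.03), and SIRT1 and POLG had -0.03 ± 0.13 and -0.19 ± 0.15.

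The citric acid cycle feeds the chain with NADH and succinate. In group II, 3 of its 11 genes were lower and 0 higher at an unadjusted p under 0.05 (beside 6.41% and 6.54% of all genes). The 11 had a median of -0.36, and none was called. DLD, shared by several dehydrogenase complexes, had -0.36 ± 0.22. The lipogenic enzymes had a lower median than either, -0.94 in group II. There 10 of 10 identifiers were lower at that threshold (9 symbols, FASN on 2 identifiers), beside 6.41% of all genes. The study had already named FASN, ACLY, SCD, ACACA, AACS, HMGCS1 and SLC25A1 as lower in these libraries, so the count is a description. SCD and FASN had -1.09 ± 0.28 and -0.99 ± 0.26. AACS, which makes acetoacetyl-CoA for lipid synthesis, was the 1 gene of all lists past the call in group II, with -0.82 ± 0.12 (edgeR adjusted p = 0.0394). The study had called AACS in the same contrast, so this too is a description. AACS was no longer past the call with the RNA integrity number or the share of reads outside genes as covariate (edgeR adjusted p = 0.0892 and 0.156) or in 1 fit of all 23 pigs (edgeR adjusted p = 0.145). Within groups, the summed lipogenic level rose with UQCRFS1 (r = 0.73, rho = 0.69, adjusted permutation p = 0.005 for both) and with NDUFA10 by r alone (r = 0.52, rho = 0.46, adjusted permutation p = 0.0363 and 0.0821). It passed with NDUFB8 by rho alone (rho = 0.61, adjusted permutation p = 0.0231, r = 0.55 with adjusted permutation p = 0.15). Without the 2 farthest pigs r was 0.59 for UQCRFS1, 0.32 for NDUFA10 and 0.35 for NDUFB8.

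The macrophage markers had 6 of 7 tested genes higher at an unadjusted p under 0.05 in group II (median 1.18, beside 6.54% of all genes). In group IV 3 were higher (median 0.67, beside 8.22%). In group III 1 was higher and 1 lower (median 0.58, beside 4.06% and 3.9%). The study had already named VSIG4 and MRC1 of this list as raised by cDDGS in these libraries, and C1Q among the complement genes that differed. The counts and the values of these genes are therefore a description. MRC1, the mannose receptor, and C1QC, a complement chain, had 1.18 ± 0.32 and 1.42 ± 0.37 in group II. Within diet groups the summed macrophage level had r between -0.38 and -0.04 with the 7 members, and none passed (adjusted permutation p of 0.228 or higher). Of the mast cell markers, MS4A2, which the study had also listed, had 1.32 ± 0.34 and KIT 0.42 ± 0.20 in group II. Endothelial and fibroblast lists had medians of 0.05 and 0.09, with PECAM1 and KDR at 0.19 ± 0.19 and -0.09 ± 0.18 and the collagen genes COL3A1 and COL1A2 at 0.11 ± 0.18 and 0.08 ± 0.25. CA3 and ACTA1 of the muscle list had 0.29 ± 0.29 and -0.67 ± 1.10, with mean levels of 1189 and 264 CPM. Whether CA3 stems from muscle here was not tested. The lymphocyte gene CD2 had -0.10 ± 0.35, and HBB and ALAS2 of red blood cells had 0.38 ± 0.28 and 0.61 ± 0.41. Of the ribosomal proteins with the highest CPM, MRPS9 and MRPS5 of the mitochondrial ribosome had 0.27 ± 0.18 and 0.18 ± 0.16, and RPS4X and RPL5 of the cytosolic ribosome had 0.03 ± 0.11 and 0.12 ± 0.12. PLIN1 and PLIN4 of the adipocyte list had -0.12 ± 0.15 and -0.35 ± 0.30. None of these was called in group II, and their part in the members' differences was not tested.

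Among the genes whose level over all 23 pigs went most closely with the mean z-score of the members were SBDS (r = 0.92), a factor in ribosome maturation, RTN3 (r = 0.89), PDHX (r = 0.88), a component of the pyruvate dehydrogenase complex, and PCMT1 (r = 0.88). These are among the highest of 8294 genes outside the respiratory chain lists with a mean of at least 5 CPM, and they are given as a description with no test. The study had listed RTN3 and PDHX as lower in group II, in contrasts that also chose members. With the group means removed their r was 0.75 and 0.78. With the group means removed, the highest were PRDX2 (r = 0.91), a peroxiredoxin, GPAT4 (r = 0.91), an acyltransferase of glycerolipid synthesis, SBDS (r = 0.91), MGST3 (r = 0.89) and PCMT1 (r = 0.87), where the median over those 8294 genes was 0.00. Of the other nuclear subunits at or above 5 CPM, 30 of 30 were above 0 with the group means removed, with a median of 0.68 and a highest value of 0.88 for ATP5MC3. The points of all these correlations share each pig's library and its depth.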

How the data were processed

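Total RNA of backfat from 23 pigs was made into stranded, rRNA-depleted libraries and sequenced with Illumina protocols. The RNA was partly degraded according to the study's methods. The deposited values are raw read counts per Ensembl gene (25322 rows), which the authors obtained with FLEXBAR, TopHat and HTSeq. Whether strand was used in counting is not given in the sources used here. The 5 summary rows of uncounted reads were kept out of library sizes. The share of reads outside genes was taken from them. Symbols came from a reference table and, for 83 identifiers, from the study's gene tables. The pig assembly of the counts could not be checked, so no coordinates are given.

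Counts were tested with edgeR 4.0.16 (R 4.3.3), with TMM factors, filterByExpr, glmQLFit and glmQLFTest, on the pigs of the groups compared, and Benjamini-Hochberg adjustment ran over all genes tested. The call was an adjusted p under 0.05 and a fold change above 1.3. SE is the log2 fold change divided by the square root of F, and 95% intervals are 1.96 SE to each side. These intervals are nominal and somewhat narrow. They can exclude no change where the F test gives an unadjusted p above 0.05. CPM used TMM factors over all 23 pigs, and co-variation used log2(CPM + 0.5) with 100000 permutations of pigs within groups. Alternatives were DESeq2 1.42.0, limma-voom 3.58.1, other size factors, filters, covariates (sex, the RNA integrity number from the study's sample table, the share of reads outside genes) and leaving out each pig. The fitting step with edgeR, DESeq2 and limma-voom was tested on simulated counts. Named genes were the members, every listed gene past the call, the 2 highest by mean CPM in each list, COX15, and the 5 genes most like the members over all pigs and within groups. Some genes that this rule names are not reported here. Members and lists were chosen with earlier results of these data known. The relations of members with the share of reads outside genes and with list sums (35, adjusted together) were added after the data were seen. The labels number separate pigs, so p-values measure the spread between pigs.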

Additional observations from a re-analysis of the deposited data

Results flagged for a closer look

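Among 28 combinations of member and diet group, 2 pigs stood apart from their group by Dixon's criterion, which chance alone meets in about 1 of 20 groups. NDUFB8 of pig 19 in group II was at 5.03 CPM, below the other 5 pigs of the group, and COX8A of pig 2 in group I was at 24.3 CPM, above the other 6. Both libraries were kept in all values.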

How the results depend on the processing

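The median log2 fold change of the members against group I kept its sign in every alternative. Over the other tools, size factors, filters and covariates it ran from -0.82 to -0.70 in group II, -0.44 to -0.39 in group III, -0.59 to -0.52 in group IV and -0.57 to -0.53 pooled, except that the share of reads outside genes as covariate gave -0.49, -0.39, -0.25 and -0.36. Leaving out 1 pig gave -0.81 to -0.66, -0.50 to -0.32, -0.60 to -0.46 and -0.61 to -0.46. Members past the call numbered 5, 1 and 3 with DESeq2 (group II, group IV, pooled) and 2 with limma-voom (pooled). Genes past the call became 95, 13, 151, 160, 29, 2 and 254 with DESeq2 (groups II, III, IV and pooled against I, III and IV against II, males against females), and 51 with limma-voom (pooled). With sex as covariate they were 5 (II against I) and 1 (IV against II). With the RNA integrity number as covariate they were 0 (II against I), 1 (III against II), 1 (IV against II) and 57 (sex). With the share of reads outside genes they were 0 (II against I), 1 (IV against III) and 57 (sex). With 1 fit of all pigs they were 0 (II against I) and 1 (pooled), without a filter 1 (III against I), 2 (pooled), 4 (III against II) and 158 (sex), and with at least 10 counts in every pig 4 (III against II). Other nuclear subunits at an unadjusted p under 0.05 numbered 9, 2, 3, 7, 2, 2 and 11 (II, III, IV and pooled against I, III against II, IV against III, sex), and DESeq2 called 2 in the sex comparison.

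Leaving out 1 pig gave 0 to 17 genes called in II against I (17 without pig 1), 0 to 1 in III against I, 0 to 116 in IV against I (116 without pig 53), 0 to 43 pooled (43 without pig 1), 0 to 5 in III against II and 33 to 187 between the sexes. Members called ran from 0 to 2 in II against I and from 0 to 2 pooled, with 2 in both without pig 1, and other nuclear subunits from 0 to 3 between the sexes (3 without pig 5). Values near 0 turned sign. For III against II the share of reads outside genes as covariate gave -0.11 for NDUFB8 and -0.05 for UQCRQ. For IV against III the share of reads outside genes gave 0.17 for NDUFA10, 0.32 for UQCRFS1, 0.14 for UQCRQ and 0.32 for COX7A2. There limma-voom gave 0.14 for UQCRQ. Leaving out a pig spanned -0.15 to 0.19 for NDUFB8, -0.19 to 0.086 for UQCRFS1, -0.23 to 0.077 for UQCRQ and -0.18 to 0.11 for COX7A2. Between the sexes UQCRQ was -0.029 with limma-voom and -0.0082 with the share, COX7A2 was -0.012 with the share, and leaving out a pig spanned -0.026 to 0.093 for UQCRQ. The causes were not tested. No paired analysis was possible because the labels give no replicate numbers shared between groups. NDUFB8 and UQCRQ, with at most 87 and 93 reads per pig, carry the larger counting error.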
